A study of Mus musculus with 6 samples.

Results

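The 9 Kruppel-like factors Klf2, Klf3, Klf4, Klf5, Klf6, Klf7, Klf10, Klf13 and Klf15 were followed across 6 RNA-seq libraries of mouse aorta. They were taken by gene symbol, as a list of factors that act in the vessel wall, chosen with earlier results of these data known. All 9 were found among the 27815 genes of the deposited files. All mice were C57BL/6, and each of the 3 groups had 2 libraries. The Ctrl group was wild type and labelled 2 months old. The ApoE group was ApoE-/-, was kept on chow for 16 months and had calcified atherosclerotic plaques; these mice lack apolipoprotein E, which clears lipoproteins, and the labels name no Cre or transgene. The CKD group (chronic kidney disease) lost both poles of the left kidney at 8 weeks of age and, after 1 week, the right kidney. It was then fed 2% phosphate and given 0.45% NaCl to drink for 4 weeks, a regimen that causes medial calcification. The age label of CKD reads 16 months and conflicts with that protocol, so the age of this group is uncertain. Between ApoE and Ctrl, genotype, plaque and age differ together and cannot be told apart. The labels do not say that the 2 libraries of a group came from separate animals, and the protocol mentions pools of 4 samples for another library type. All p-values therefore measure only library-to-library spread, and it may be technical.

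Kruppel-like factors are transcription factors with a shared carboxy-terminal zinc finger domain that binds CACCC and GC-rich boxes, and they differ in the amino-terminal parts that recruit coactivators or corepressors. Klf2 and Klf4 are induced in endothelium by laminar flow through the kinase ERK5 and MEF2 factors, and there they favour nitric oxide synthesis and restrain adhesion molecules. In smooth muscle, Klf4 represses contractile genes and Klf5 drives growth, while Klf15 is known as a restraint on growth and inflammation and as a metabolic regulator. Klf15 and its relative Klf9 are also known to respond to glucocorticoids and to follow the circadian clock.

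Promoter windows of RefSeq (build GRCm38.p6), from 250 bases before to 50 bases after each annotated start, were held for 7 of the 9 factors, and Klf5 and Klf10 had none in the table. Both strands were searched for 10 motifs: the E-box CACGTG, to which clock and other basic helix-loop-helix factors bind, MEF2, the CArG box, the cAMP element TGACGTCA, the AP-1 element TGANTCA, the glucocorticoid element (GNACA and TGTNC, 3 bases apart), the D-box TTATGTAA, CACCC, the GC box GGGGCGGGG and CCAAT. The stretches that follow hold every E-box match found among the members, and the single MEF2 match, which lay in Klf2. They were chosen with the levels of the factors known. Klf15, Klf4 and Klf6 were lower in ApoE than in CKD by the later test, as was Klf13, which held no E-box. Capitals mark the E-box in the first 3 stretches and the MEF2 match in the last.
Klf15, chr6:90462326-90462581, plus strand: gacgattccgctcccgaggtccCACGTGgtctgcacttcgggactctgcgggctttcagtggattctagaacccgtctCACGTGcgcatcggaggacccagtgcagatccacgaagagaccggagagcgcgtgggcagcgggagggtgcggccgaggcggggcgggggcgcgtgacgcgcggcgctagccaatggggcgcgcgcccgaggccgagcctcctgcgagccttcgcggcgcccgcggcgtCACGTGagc
Klf4, chr4:55532616-55532675, minus strand: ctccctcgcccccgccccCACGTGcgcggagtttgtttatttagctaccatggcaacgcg
Klf6, chr13:5861419-5861478, plus strand: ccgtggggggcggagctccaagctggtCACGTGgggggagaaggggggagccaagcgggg
Klf2, chr8:72318912-72318971, plus strand: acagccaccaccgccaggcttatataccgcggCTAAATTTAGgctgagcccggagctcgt

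Klf15 carried 3 E-boxes, at positions -228 to -223, -172 to -167 and -3 to 3 from its start, so that the last one spans the start itself. Klf4 carried 1, at -182 to -177, directly beside a GC box, and Klf6 carried 1, at -43 to -38. No E-box match overlapped a match of another motif. Of all 32851 windows of 300 bases in the table, 7.15% held at least 1 E-box and 0.0883%, or 29 windows, held at least 3. These windows were not matched to those of the members for base content. Klf2, Klf3, Klf7 and Klf13 held none, and of the 6 other Kruppel-like factors with a window only Klf11 held 1. The MEF2 match of Klf2 lay at -118 to -109, and 3.19% of all windows held such a match. The GC box was found in 5 members (Klf2, Klf3, Klf4, Klf13 and Klf15), against 11.4% of all windows. None of the 7 windows held the cAMP element, the glucocorticoid element or the D-box, which were found in 1.79%, 0.475% and 0.938% of all windows. The CArG box and the AP-1 element were also absent from the 7 (1.63% and 7.81% of all windows). CACCC was found in Klf2, Klf3, Klf7, Klf13 and Klf15 (57.5% of all windows) and CCAAT in Klf6, Klf13 and Klf15 (37.4%). A match describes the letters only, and no binding was measured.

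Levels are given as FPKM, a read count divided by exon length and library depth. They can be compared between genes, except where a large part of the exon bases is shared with another gene. Among the members this holds for Klf7 (39.4%). Library depth ranged from 14.44 to 16.64 M reads, at which a single read over 2 kb of exon equals 0.03 to 0.0346 FPKM. Summed markers of smooth muscle stood at 8360 and 7490 FPKM for Ctrl, 647 and 566 in ApoE and 3430 and 5940 in CKD, and endothelial markers at 178 to 373 in all 6 libraries, so the labelled tissue was present. Macrophage markers summed to 322 and 299 in Ctrl, 4680 and 8090 in ApoE and 650 and 1100 in CKD, and white adipocyte markers to 431 and 1010, 3160 and 3340, and 7810 and 2630. Mesothelial markers (0.456 and 1.03, 8.12 and 5.3, and 51.9 and 41.5) and cardiomyocyte markers (4.61 and 4.31, 8.55 and 9.13, and 23.8 and 30.1) were highest in CKD, and the part of these cells in the results was not tested. No marker of these lists was at 0 in all 6 libraries. In bulk tissue, fewer cells of a type and less RNA per cell cannot be told apart.

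Klf2 and Klf6 were the most abundant of the 9 factors in every library, and Klf5 was the least abundant. Klf2 held first place in Ctrl 1 and both ApoE libraries, and Klf6 in Ctrl 2 and both CKD libraries. Klf15 ranked 3 in both Ctrl and both CKD libraries, but 6 in ApoE 1 and 7 in ApoE 2. Klf4 and Klf13 held ranks 4 and 5 in Ctrl, and their order differed between the 2 Ctrl libraries. In ApoE, Klf4 ranked 3 and Klf10 ranked 4, whereas Klf10 ranked 6 in every Ctrl and CKD library. Klf7, whose level is uncertain because of shared exon bases, ranked 8 throughout, and Klf3 ranked 6 or 7. Neighbours in Ctrl such as Klf2 (mean 59.0 FPKM ± 19.7, SD, n = 2) and Klf6 (56.3 ± 6.81) did not differ beyond their spread.

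The 9 levels summed to 263 and 233 FPKM for Ctrl, 166 and 142 in ApoE and 298 and 299 in CKD. The summed level was lower in both ApoE libraries and higher in both CKD libraries than in either Ctrl library. These sums were not scaled to the total FPKM of all genes. That total was 313054 and 328865 in Ctrl, 384069 and 398278 in ApoE and 385678 and 342091 in CKD. Since it too was higher in CKD than in Ctrl, the higher sum in CKD may not hold after scaling, which was not tested. Klf15 made up 15.7% and 19.0% of the sum in Ctrl and 19.3% and 17.9% in CKD, but 4.41% and 3.98% in ApoE. Klf10 went the other way, with 10.3% and 9.85% in ApoE against 6.97% and 5.7% in Ctrl and 5.09% and 4.05% in CKD. Its own level overlapped between the groups. Over all Kruppel-like factors listed, the 9 accounted for 72.6% and 70.1% of the summed level in Ctrl, 83.8% and 84.2% in ApoE and 75.4% and 69.3% in CKD.

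**Figure D1:**
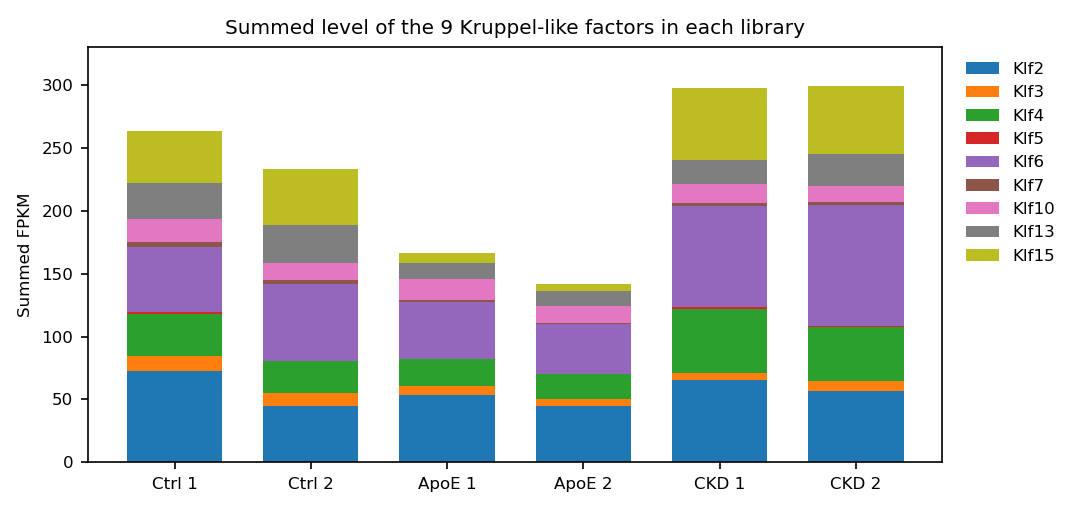
Summed FPKM of the 9 factors in each library (bars from 0, 1 bar per library, stacked by factor). The ApoE bars end at 166 and 142, below every Ctrl and CKD bar, and the Klf15 segment at the top is the one that shrinks most in them.

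The first comparison set the plaque-bearing ApoE aorta against the young wild-type aorta. Klf15, Klf13, Klf7 and Klf3 fell in ApoE and no member rose. The fall of Klf15 was 6.61-fold, that of Klf13 2.41-fold, that of Klf7 2.65-fold and that of Klf3 1.67-fold in mean FPKM. The flow-induced factors Klf2 and Klf4, together with Klf5, Klf6 and Klf10, did not pass the test. Values were tested by limma on log2(FPKM + 1), with Benjamini-Hochberg adjustment over 14074 genes and a threshold of 0.05; on that scale the change of low genes is understated. By the same test 44.1% of all genes were called, 24.3% lower and 19.8% higher, so 4 of 9 members is near the share called in either direction; that all 4 were lower, against the 24.3% of all genes, was not tested. Unadjusted p was below 0.05 for 5 members and for 53.6% of all genes. The libraries of the 2 groups did not overlap for 7 members, all lower in ApoE, against 79.4% of all genes, 43.0% lower and 36.4% higher. The median log2 fold change of the members was -0.66, and that of all tested genes -0.07.

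Klf15 (ENSMUSG00000030087; GRCm38 chromosome 6, 90462576 to 90475238, plus strand) stood at 41.4 and 44.3 FPKM for Ctrl, 7.31 and 5.66 in ApoE and 57.5 and 53.3 in CKD. Both ApoE libraries lay far below the other 4, which were between 41.4 and 57.5. The mean was 42.9 ± 2.01 in Ctrl and 6.49 ± 1.16 in ApoE (SD, n = 2), a log2 fold change of -2.56 (SE 0.15, limma adjusted p = 0.000264). These values rest on 1925 and 1871 reads in Ctrl and 325 and 235 in ApoE. It was called under each of 16 other ways of processing, with adjusted p between 0.000165 and 0.0104.

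Klf13 (ENSMUSG00000052040; chromosome 7, 63886351 to 63938915, minus strand), an activator of the chemokine gene Ccl5 in T cells and a factor of heart development, stood at 28.6 and 30.2 FPKM for Ctrl, 12.6 and 11.7 in ApoE and 18.6 and 26.0 in CKD. Its libraries formed 3 levels that did not overlap, with CKD between Ctrl and ApoE. The log2 fold change of ApoE against Ctrl was -1.21 (SE 0.18, limma adjusted p = 0.00383). With the adipocyte marker level as a covariate it was -0.74 (adjusted p = 0.197), and under the other 15 alternatives it was called. That marker level (mean log2) was 3.95 and 4.94 in Ctrl and 6.76 and 6.90 in ApoE. It went with the group, so the covariate and the group cannot be told apart.

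Klf7 (ENSMUSG00000025959; chromosome 1, 64029447 to 64122282, minus strand), known from neurons and from adipose tissue, stood at 3.79 and 3.27 FPKM for Ctrl, 1.77 and 0.893 in ApoE and 2.38 and 3.08 in CKD. Here too both CKD libraries lay between the groups. The log2 fold change of ApoE against Ctrl was -0.98 (SE 0.22, limma adjusted p = 0.0159). Of its exon bases, 39.4% are shared with the opposite-strand genes Gm13748 and Gm26649, and the kit did not mark strand, so its level is uncertain. The call was lost without Ctrl 1 (adjusted p = 0.0885), Ctrl 2 (0.0553) or ApoE 2 (0.064) and with the adipocyte covariate (0.5).

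Klf3 (ENSMUSG00000029178; chromosome 5, 64803388 to 64832901, plus strand), a repressor that works through CtBP, stood at 11.5 and 9.65 FPKM for Ctrl, 6.91 and 5.71 in ApoE and 5.82 and 8.36 in CKD. The ApoE and CKD libraries overlapped, and all 4 lay below Ctrl. The log2 fold change of ApoE against Ctrl was -0.66 (SE 0.20, limma adjusted p = 0.0384), the least firm of the 4 calls. Of its exon bases, 3.6% are shared with the opposite-strand gene Gm20033. The call was lost when Ctrl 1 (0.186), Ctrl 2 (0.0845), ApoE 1 (0.0774) or ApoE 2 (0.173) was left out. With no filter on low values its adjusted p was 0.0809 and with the adipocyte covariate the fold change was 0.03 (adjusted p = 0.96).

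The endothelial flow factors came next. Klf2 (ENSMUSG00000055148; chromosome 8, 72319033 to 72321656, plus strand) stood at 72.9 and 45.1 FPKM for Ctrl, 53.3 and 44.6 in ApoE and 65.7 and 56.4 in CKD. The 2 Ctrl libraries differed more from each other than the group means did, and all 3 groups lay within the range of 44.6 to 72.9. Its log2 fold change of ApoE against Ctrl was -0.23 (SE 0.26, limma adjusted p = 0.493). Klf4 (ENSMUSG00000003032; chromosome 4, 55527143 to 55532466, minus strand) stood at 33.3 and 25.5 in Ctrl, 21.5 and 20.2 in ApoE and 50.8 and 42.7 in CKD. Its 3 groups did not overlap, with ApoE lowest and CKD highest. Neither difference of Klf4 from Ctrl passed the test, with log2 fold changes of -0.46 for ApoE (SE 0.18, limma adjusted p = 0.08) and 0.66 for CKD (SE 0.18, adjusted p = 0.08).

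Klf6 (ENSMUSG00000000078; chromosome 13, 5861482 to 5870394, plus strand), induced by injury and a partner in TGF-beta signalling, showed the same order. It stood at 51.5 and 61.2 FPKM for Ctrl, 44.8 and 39.3 in ApoE and 80.9 and 95.4 in CKD. Again the groups did not overlap, and the log2 fold changes against Ctrl were -0.41 for ApoE (SE 0.17, limma adjusted p = 0.101) and 0.64 for CKD (SE 0.17, adjusted p = 0.0812).

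Klf5 (ENSMUSG00000005148; chromosome 14, 99298691 to 99315036, plus strand) was near the lower limit of the data, at 1.89 and 0.537 FPKM for Ctrl, 0.255 and 0.274 in ApoE and 1.22 and 1.09 in CKD. It passed the filter of at least 1 FPKM in at least 2 libraries only through Ctrl 1 and CKD, and each ApoE value rests on 21 reads. Ctrl 1 and Ctrl 2 lay on either side of CKD. The log2 fold change of ApoE against Ctrl was -0.74 (SE 0.30, limma adjusted p = 0.0971), and without Ctrl 2 it was -1.19 (adjusted p = 0.0183). Klf10 (ENSMUSG00000037465; chromosome 15, 38291463 to 38300706, minus strand), an early target of TGF-beta, stood at 18.4 and 13.3 in Ctrl, 17.1 and 14.0 in ApoE and 15.2 and 12.1 in CKD. The groups overlapped in all 3 comparisons, and its log2 fold change of ApoE against Ctrl was -0.01 (SE 0.21, limma adjusted p = 0.967), with a sign that changed with the scaling.

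**Figure D2:**
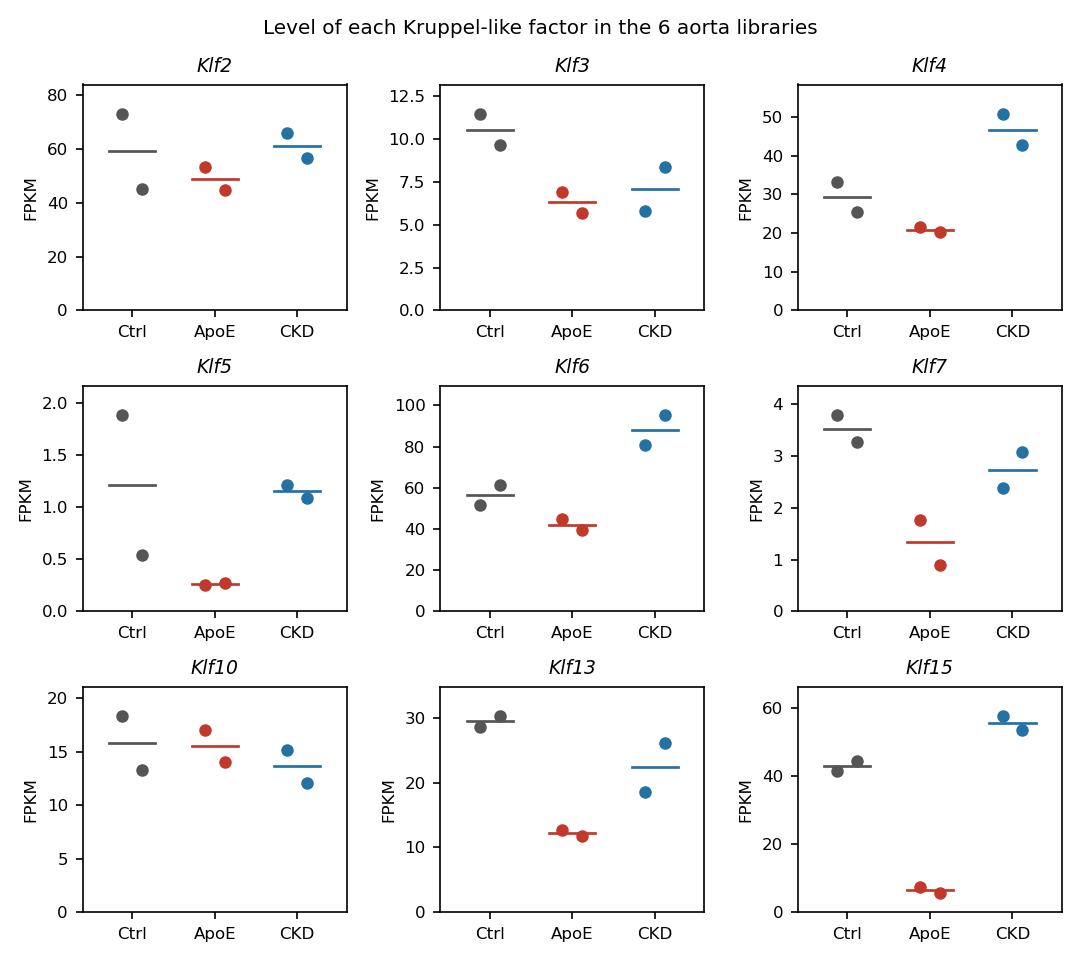
FPKM of each factor (vertical axis from 0, a scale of its own per panel) in the Ctrl, ApoE and CKD groups. Points are the 2 libraries and lines their mean. The ApoE points of Klf15 lie at 7.31 and 5.66, and Klf4 and Klf6 are lowest in ApoE and highest in CKD.

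The second comparison set the aorta with medial calcification against Ctrl. No member was called by limma, and 3 of 9 (Klf3, Klf4 and Klf6) had an unadjusted p below 0.05. Over all genes 5.44% were called (2.23% higher, 3.21% lower) and 30.0% had an unadjusted p below 0.05, so that share too is near the background. Klf4, Klf6 and Klf15 were higher in both CKD libraries than in both Ctrl libraries, and Klf3, Klf7 and Klf13 were lower in both, which makes 6 of 9 members without overlap. Of all genes 64.2% did not overlap, 29.1% higher and 35.1% lower. Klf15 had a log2 fold change of 0.36 (SE 0.15, limma adjusted p = 0.178), and Klf13 one of -0.40 (SE 0.18, adjusted p = 0.197). Without CKD 2, Klf13 was called at -0.63 (adjusted p = 0.038). The number of all genes called, 766, fell to 0 when either Ctrl library was left out, to 3 when either ApoE library was, and to 37 in the absence of CKD 1, and was 2366 in that of CKD 2, and each call of another gene in CKD against Ctrl named later rests on that fit. Klf2 (0.08, SE 0.26), Klf5 (0.03, SE 0.30) and Klf10 (-0.19, SE 0.21) had overlapping libraries. The median over members was 0.03, and that of all tested genes -0.03.

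The third comparison set the calcification models directly against each other. Klf15, Klf4, Klf6 and Klf13 were lower in ApoE than in CKD, and none was higher. In mean FPKM, CKD exceeded ApoE 8.55-fold for Klf15, 2.24-fold for Klf4, 2.1-fold for Klf6 and 1.83-fold for Klf13. The log2 fold change of ApoE against CKD was -2.92 for Klf15 (SE 0.15, limma adjusted p = 0.000542), -1.12 for Klf4 (SE 0.18, adjusted p = 0.0058), -1.05 for Klf6 (SE 0.17, adjusted p = 0.00656) and -0.81 for Klf13 (SE 0.18, adjusted p = 0.0168). Klf15, Klf4 and Klf6 kept their call under each of the 16 alternatives, with the highest adjusted p at 0.0112, 0.0455 and 0.0487. Klf13 lost it without ApoE 1 (0.0634) or ApoE 2 (0.0922). Klf7 lay at the threshold (-0.70, SE 0.22, adjusted p = 0.0504), and Klf5 missed it (-0.77, SE 0.30, adjusted p = 0.0938). Klf7 was called under 5 of 15 alternatives, among them upper-quartile scaling (adjusted p = 0.0453) and median-ratio scaling (0.0459). Klf5 was called under 3 of 15. Klf2 (-0.32), Klf3 (-0.13) and Klf10 (0.18) had adjusted p of 0.369 to 0.623. Of all genes 39.7% were called, 21.2% lower and 18.5% higher. Unadjusted p was below 0.05 for 6 members and for 50.1% of all genes. The libraries of 7 members did not overlap, all lower in ApoE, against 71.0% of all genes, 38.0% lower and 33.0% higher. The median was -0.77 for the members and -0.04 for all tested genes. The 3 comparisons share libraries, so their counts are not independent.

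Klf4, Klf6 and Klf15 are thus the members that were lower in both ApoE libraries and higher in both CKD libraries than in Ctrl. They are also the 3 members with an E-box among the 7 that had a promoter window. This coincidence was seen after the values were known and was not tested, and Klf5 and Klf10 had no window to examine. Of all tested genes, 43.0% were lower in both ApoE libraries and 29.1% higher in both CKD libraries than in Ctrl. The share of genes with both was not counted, so the order may be common.

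**Figure D3:**
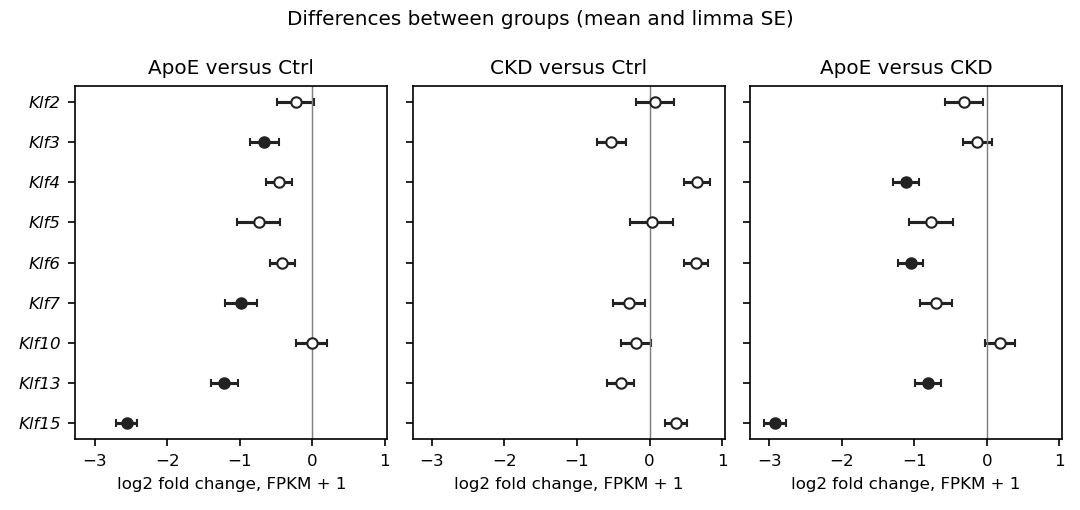
Log2 fold change of each factor on the FPKM + 1 scale in the 3 comparisons (horizontal axis), with bars for limma's SE. Filled points passed an adjusted p of 0.05 and open points did not. The point of Klf15 lies at -2.56 and -2.92 in the comparisons with ApoE, apart from every other factor, and no point is filled for CKD versus Ctrl.

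**Figure D4:**
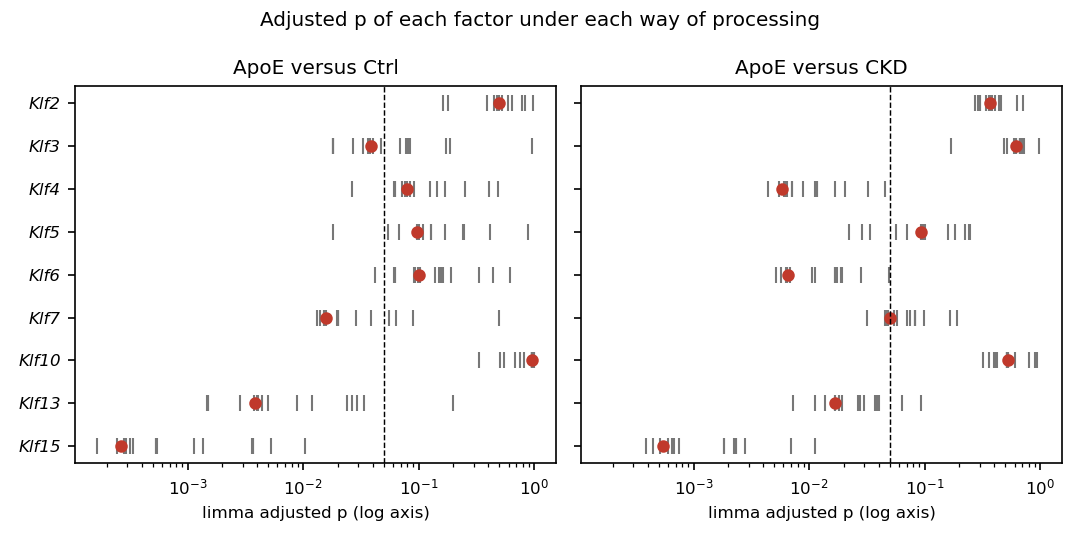
Adjusted p of each factor (log axis) for ApoE versus Ctrl and ApoE versus CKD. Red points are the values reported, grey ticks the alternatives, and the dashed line is 0.05. All ticks of Klf15 lie left of the line in both panels, as do those of Klf4 and Klf6 for ApoE versus CKD, whereas those of Klf3 and Klf7 cross it for ApoE versus Ctrl.

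Gene lists around the 9 factors are described by their counts, which stand beside the 44.1%, 5.44% and 39.7% of all genes called in the 3 comparisons. For ApoE against Ctrl, where the median log2 fold change of all genes was -0.07, the medians were -0.92 for the other Kruppel-like factors, -0.47 for SP factors, -0.33 for cofactors, -0.28 for ubiquitin ligases and 0.74 for endothelial targets. They were 5.52 for plaque genes, -0.38 for targets of Klf5, 0.61 for those of Klf6 and Klf7, 0.32 for those of Klf3, Klf10 and Klf13, 1.23 for those of Klf15, -0.48 for immediate early genes and 0.66 for adipogenic factors.

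Klf9 was the most abundant of the other members of the family. Of the 8 other Kruppel-like genes 7 were listed and 5 passed the filter, and 4 of these fell in ApoE against Ctrl, none rose, and none was called in CKD. Klf9, the glucocorticoid and clock responsive relative, stood at 82.8 and 86.9 FPKM for Ctrl, 21.6 and 18.0 in ApoE and 83.4 and 118 in CKD, above every one of the 9 members in Ctrl. Its log2 fold change was -2.05 against Ctrl (SE 0.21, limma adjusted p = 0.00104) and -2.28 against CKD (adjusted p = 0.0012). Klf12 fell by 1.31 (adjusted p = 0.00664), Klf8 by 0.92 (adjusted p = 0.00843) and Klf11 by 0.61 (adjusted p = 0.0307) on the log2 scale. Klf12 (0.439 and 0.29 FPKM) and Klf8 (0.53 and 0.569) were below 1 FPKM in both ApoE libraries and passed the filter only through the other groups, so their falls say little for the family. Klf16 was the exception, higher in ApoE than in CKD by 0.81 (adjusted p = 0.0403). Of the related SP factors 4 passed the filter, and Sp1 fell in ApoE against Ctrl (-0.59, adjusted p = 0.03) while Sp4 was lower than in CKD (-0.73, adjusted p = 0.0413).

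Upstream of Klf2 and Klf4, 7 of the 11 tested genes of the flow, ERK5 and MEF2 pathway fell in ApoE against Ctrl and 2 rose, with a median of -0.63. The 2 that rose were Piezo1 (1.08, limma adjusted p = 0.00414) and Map2k5 (0.35, adjusted p = 0.0458). Piezo1 shares 24.6% of its exon bases with Ctu2. The transcription factor Mef2d stood at 42.2 and 40.9 FPKM for Ctrl, 17.1 and 17.8 in ApoE and 34.8 and 38.8 in CKD (-1.21, limma adjusted p = 0.00122). Its class II deacetylase partners, which hold MEF2 factors in check, fell as well, Hdac5 by 1.44 (adjusted p = 0.00109) and Hdac7 by 1.08 (adjusted p = 0.00367) on the log2 scale. None of the 11 was called in CKD against Ctrl. Against CKD, 6 were lower in ApoE, among them Mef2d (-1.03, adjusted p = 0.00274), Hdac5 (-1.14, adjusted p = 0.00314) and Hdac4 (-0.79, adjusted p = 0.00741). Hdac4 shares 22.4% of its exon bases with Gm26720. The 1 that was higher was Mapk7, the ERK5 gene (0.61, adjusted p = 0.0149). Its log2 fold change of ApoE against Ctrl was 0.02 (adjusted p = 0.912).

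Of 11 corepressors and coactivators of these factors 4 fell in ApoE against Ctrl and none rose, among them the acetyltransferases Kat2b (-0.68, limma adjusted p = 0.0176) and Crebbp (-0.48, adjusted p = 0.0285) and the corepressor Ncor1 (-0.44, adjusted p = 0.023). The same 3 named genes were lower in ApoE than in CKD. The partners of Klf3, Ctbp1 and Ctbp2, had log2 fold changes of 0.20 and 0.04 and did not pass the test. Of 5 ubiquitin ligases that act on Kruppel-like proteins, Smurf2 (-0.74, limma adjusted p = 0.0104) and Btrc (-0.43, adjusted p = 0.0427) fell in ApoE against Ctrl, and Smurf1 was lower than in CKD (-0.66, adjusted p = 0.0164). No gene of either list was called in CKD against Ctrl.

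Known targets were read next, beginning with endothelium. Of the 8 endothelial targets of Klf2 and Klf4, 5 rose in ApoE against Ctrl and 1 fell. Genes that Klf2 or Klf4 is known to restrain were among the rises: the adhesion molecules Sele (1.73 and 0.567 FPKM for Ctrl, 13.5 and 10.6 in ApoE; 2.65, limma adjusted p = 0.00361) and Vcam1 (1.75, adjusted p = 0.00553), and the vasoconstrictor Edn1 (1.79, adjusted p = 0.00678). S1pr1, a sphingosine receptor induced by Klf2 (0.71, adjusted p = 0.0153), and Asl, an enzyme of arginine synthesis (0.76, adjusted p = 0.0162), rose too. Nos3, the endothelial nitric oxide synthase, fell (-0.71, adjusted p = 0.0347), and 32.3% of its exon bases are shared with Atg9b and Gm15587. None was called in CKD against Ctrl. Endothelial markers themselves were mixed in ApoE, with 3 called higher and 1 lower of 8, and their part in these values was not tested.

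All 7 smooth muscle genes that Klf4 is known to repress fell in ApoE against Ctrl, with a median of -3.5. All but Myocd are also in the list of smooth muscle markers, of which 8 of 8 were called lower and whose sum was 8360 and 7490 FPKM for Ctrl against 647 and 566 in ApoE. The part of smooth muscle content, or of Klf4, in these values was not tested. Myh11, smooth muscle myosin, stood at 1120 and 1040 FPKM for Ctrl and 60.0 and 51.6 in ApoE (-4.25, limma adjusted p = 0.0002). Smtn changed by -3.5 (adjusted p = 0.00019) and Tagln by -2.17 (adjusted p = 0.000301), with 16.3% and 67.9% of their exon bases shared with other genes. All 7 were also lower in ApoE than in CKD. In CKD against Ctrl the median was -0.74 and Des passed the test (-1.19, adjusted p = 0.0288). Cnn1 (-1.1, adjusted p = 0.0621), Smtn (-0.64, adjusted p = 0.0797), Myh11 (-0.74, adjusted p = 0.0922), Tagln (-0.37, adjusted p = 0.144) and Acta2 (-0.79, adjusted p = 0.179) did not pass, though both CKD libraries lay below both Ctrl libraries for each, and Myocd overlapped. Of 5 plaque genes linked to Klf4 in smooth muscle cells, 4 rose in ApoE, among them Spp1 (10.89, adjusted p = 0.000172), Lgals3 (6.16, adjusted p = 0.00019) and Cd68 (5.52, adjusted p = 0.000176). The same 3 rose in CKD, by 4.67 (adjusted p = 0.0145), 1.88 (adjusted p = 0.0364) and 1.46 (adjusted p = 0.0393). These 3 are also abundant in macrophages, whose 8 markers were called higher 7 times in ApoE and 3 times in CKD, and the part of macrophages in these values was not tested. Spp1, at 0.474 and 0.561 FPKM in Ctrl, passed the filter only through ApoE and CKD, where it was higher. Of its exon bases, 18.8% are shared with Gm42793.

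Among 6 targets of Klf5, Myh10 (a non-muscle myosin of immature smooth muscle) fell in ApoE against Ctrl by 2.43 (limma adjusted p = 0.000842) and Egr1 by 1.37 (adjusted p = 0.00787) on the log2 scale, while Ccnd1 rose (1.13, adjusted p = 0.00875). Ccnd1 shares 23.4% of its exon bases with LTO1. Among 6 targets of Klf6 and Klf7, Plau, the urokinase (3.9, adjusted p = 0.000283), and Tgfb1 (1.72, adjusted p = 0.0057) rose. In CKD the cell cycle inhibitor Cdkn1a, a target of Klf6, rose (2.09, adjusted p = 0.033) and the receptor Acvrl1 fell (-1.0, adjusted p = 0.0274). Cdkn1a stood at 26.4 and 25.6 FPKM for Ctrl and 160 and 80.6 in CKD. Of 5 targets of Klf3, Klf10 and Klf13, Smad7 fell in ApoE (-1.47, adjusted p = 0.00878), as did Klf8, a gene that Klf3 is known to repress. Lgals3, in this list too, was the 1 that rose. Ccl5, the Klf13 target, was higher in ApoE than in CKD (2.61, adjusted p = 0.00578). At 0.564 and 0.938 FPKM in CKD, it passed the filter only through Ctrl and ApoE. T cell markers summed to 4.73 and 42.3 FPKM for Ctrl, 12.5 and 27.6 in ApoE and 1.38 and 1.92 in CKD, and B cell markers to 4.03 and 19.9, 13.8 and 29.2, and 1.51 and 0.942. Ctrl 2 was far above Ctrl 1 in both, and the part of these cells in the level of Ccl5 was not tested.

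Of 8 metabolic targets of Klf15, 6 passed the filter, 2 rose in ApoE against Ctrl and none fell. Acss1, a mitochondrial acetyl-CoA synthetase (1.89, limma adjusted p = 0.00512), and Gpt, alanine aminotransferase (2.05, adjusted p = 0.0399), were the 2 that rose. Gpt stood at 2.71 and 5.02 FPKM for Ctrl, 18.3 and 18.7 in ApoE and 34.8 and 8.27 in CKD, and none of the 6 was called in either comparison with CKD. Gpt and the summed adipocyte markers were both higher in CKD 1 than in CKD 2, and the part of adipocytes was not tested. Of 7 adipogenic factors 3 rose in ApoE, Cebpa (3.17, adjusted p = 0.00534), Pparg (2.34, adjusted p = 0.0121) and Srebf1 (1.12, adjusted p = 0.0129).

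Since Klf15 and Klf9 are known to answer to glucocorticoids and the clock, both sets of genes were read beside them. Of 16 clock genes, 11 fell in ApoE against Ctrl and 2 rose, with a median of -1.89. Per2 stood at 64.9 and 65.6 FPKM for Ctrl, 6.7 and 7.54 in ApoE and 31.3 and 36.4 in CKD (-3.03, limma adjusted p = 0.000173). The output factors Tef and Hlf fell by 2.17 and 1.97 on the log2 scale (adjusted p = 0.000349 and 0.000303), and Arntl (1.04, adjusted p = 0.0264) and Bhlhe40 (1.62, adjusted p = 0.00175) rose. Arntl, at 0.328 and 0.413 FPKM in Ctrl, passed the filter only through ApoE and CKD, where it was higher. In CKD against Ctrl, 4 clock genes fell, Hlf (-1.24), Per3 (-1.28), Per2 (-0.93) and Tef (-0.86), with adjusted p of 0.0197 to 0.0392. Against CKD, 10 clock genes were lower in ApoE and 2 were higher. Cry2 stood at 18.0 and 15.2 FPKM for Ctrl, 3.98 and 3.74 in ApoE and 28.4 and 22.7 in CKD (-2.44 against CKD, adjusted p = 0.000597), and Ciart at 8.69 and 9.47, 0.777 and 1.19, and 18.1 and 12.1 (-3.0, adjusted p = 0.000737). Both had the order of Klf15, lowest in ApoE and highest in CKD, whereas Per2 was lower in CKD than in Ctrl. The labels give no hour of collection, and its part in these values was not tested.

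Of 7 tested glucocorticoid responsive genes, 5 fell in ApoE against Ctrl and 1 rose, with a median of -1.25. Zbtb16 stood at 44.6 and 52.9 FPKM for Ctrl, 3.21 and 1.77 in ApoE and 60.0 and 53.5 in CKD (-3.86, limma adjusted p = 0.00026), and Fkbp5 at 36.1 and 52.9, 9.64 and 6.36, and 73.6 and 63.6 (-2.34, adjusted p = 0.00146). Like Klf15, both were lower in the ApoE libraries than in the other 4. Tsc22d3 fell by 1.02 on the log2 scale (adjusted p = 0.00407), and Sgk1 rose in ApoE (1.14, adjusted p = 0.0179) and in CKD (1.53, adjusted p = 0.0392). Against CKD, 6 of the 7 were lower in ApoE. Of 17 immediate early genes, which respond to handling of tissue and share regulation with Klf2, Klf4, Klf6 and Klf10, 6 fell and 2 rose in ApoE against Ctrl, and 9 were lower and 2 higher than in CKD. Fosb (-2.36, adjusted p = 0.00575) and Btg2 (-2.21, adjusted p = 0.00234) fell and Egr2 rose (2.2, adjusted p = 0.000612). Egr2, at 0.654 and 0.933 FPKM in Ctrl, passed the filter only through ApoE and CKD, where it was higher. The part of handling in the levels of Klf4 and Klf6 was not tested.

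**Figure D5:**
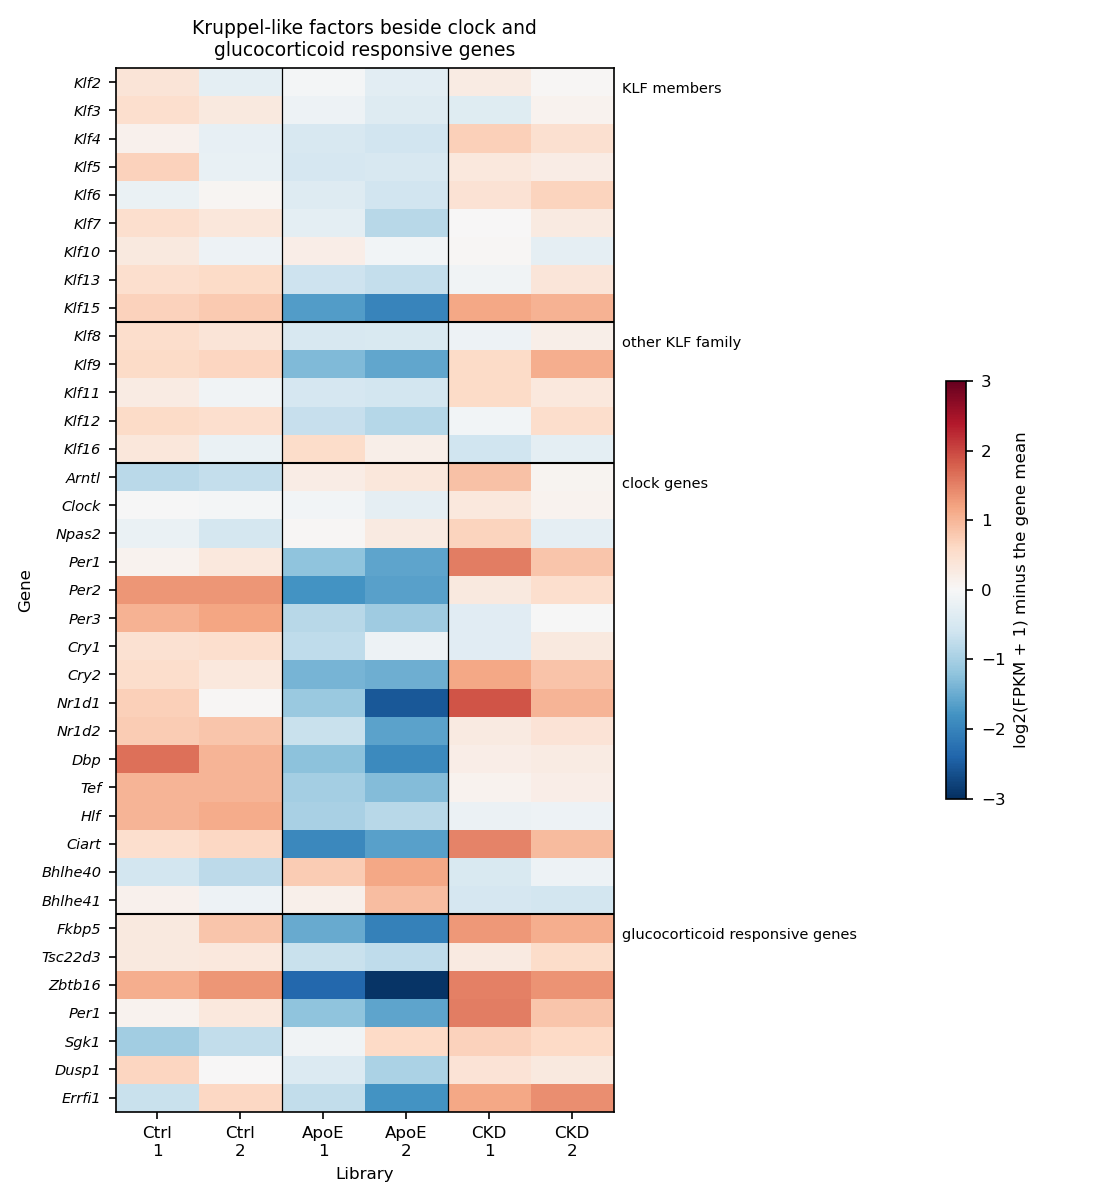
Log2(FPKM + 1) minus each gene's mean over the 6 libraries (colour, red above and blue below the mean) for the 9 factors, 5 other Kruppel-like factors, 16 clock genes and 7 glucocorticoid responsive genes; Per1 stands in both of the last groups. Klf15, Klf9, Per2 and Zbtb16 are blue in both ApoE libraries, and Klf2 and Klf10 are pale throughout.

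The 9 factors did not share a single pattern. The distance between 2 factors was taken as the root mean square difference of their centred log2(FPKM + 1) values over the 6 libraries. It grows with the size of a change and does not measure its order alone. The closest pairs were Klf7 with Klf13 (0.183), Klf2 with Klf10 (0.216) and Klf4 with Klf6 (0.23). Klf15 was the farthest from all others, at 0.893 from Klf13 and 1.36 from Klf10. It also had the largest log2 fold changes in the comparisons with ApoE, though its order of groups was that of Klf4 and Klf6. Among other genes of at least 5 FPKM on average, Npas4, a neuronal activity factor (0.1; 15.8 and 14.7 FPKM for Ctrl, 1.93 and 1.81 in ApoE, 20.3 and 20.3 in CKD), Rbm24 (0.103) and Gpc3 (0.139) were the most like Klf15. Col4a2, a basement membrane collagen, was the most like Klf13 (0.051; 125 and 131 in Ctrl, 52.8 and 49.4 in ApoE, 83.5 and 109 in CKD), followed by Clic4 and Atl3. Zfp503 (0.095), Lmbr1l and Zfp869 were the most like Klf4, and Trim24 (0.082), Scyl3 and Tmcc3 the most like Klf6. For Klf2 these were Hes1, a Notch target (0.101), Atg3 and Rab24, and for Klf10 they were Als2cl (0.092), Mtch1 and Dpm3. Tspan9 (0.058), Txndc16 and Tmem263 led for Klf3, Dync2li1 (0.056) and Sdc2 for Klf7, and Hoxa5 (0.122), Sap30l and Nenf for Klf5. These likenesses rest on 6 libraries in 3 groups, and 7437 or 7438 genes were searched for each factor.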

How the data were processed

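Polyadenylated RNA of mouse aorta was read in 6 libraries, grouped by their titles. The deposited values carry no named unit and were taken as FPKM from the values themselves: multiplied by exon length (GENCODE M21, GRCm38), 95.2% to 95.8% of values up to 20 reads were whole within 0.05, which gives 14.44 to 16.64 M reads per library and sets the precision of low genes. Bowtie2 2.2.3, HISAT2 2.1.0, TopHat2 and GRCm38 are named per the submitters' processing notes. What each did, and which counter and gene models the authors used, is not given in the sources used here. The kit did not mark strand. Symbols matched 27730 of 27815 identifiers.

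The analysis used log2(FPKM + 1) of the 14074 genes that reached 1 FPKM in 2 or more libraries, in a single limma model of group means over all 6 libraries (limma 3.58.1, R 4.3.3, variance trend, robust), adjusted over all tested genes by Benjamini-Hochberg at 0.05. The fit was tested on simulated data. The members, gene lists and adipocyte covariate were chosen with earlier results of these data known. Named are all members, up to 3 called genes per list and comparison with the smallest adjusted p (or the 2 most abundant), and the 3 genes nearest each member (some genes the rule names are not reported here); other list genes named here, such as Ctbp1, Ctbp2, Nos3, S1pr1, Asl, Arntl, Bhlhe40 and Klf16, were added after their values were seen. Alternatives were another pseudocount, other filters, 3 scalings, a fit without the robust option, a replicate block, the adipocyte covariate, only the 4 libraries compared, and leaving out each library.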

Additional observations from a re-analysis of the deposited data

Results flagged for a closer look

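Klf4, Klf6 and Klf15 were lower in both ApoE libraries and higher in both CKD libraries than in either Ctrl library. They were picked out by that order, so the log2 fold changes of ApoE against CKD that follow describe it and do not test it. Of all tested genes, 43.0% were lower in both ApoE libraries and 29.1% higher in both CKD libraries than in Ctrl. The share with both was not counted. Of the 6 differences from Ctrl, only that of Klf15 in ApoE passed the test by limma; those of Klf4 (adjusted p = 0.08 in ApoE and 0.08 in CKD), Klf6 (0.101 and 0.0812) and Klf15 in CKD (0.178) did not. ApoE against CKD was -1.12 for Klf4, -1.05 for Klf6 and -2.92 for Klf15 on the log2(FPKM + 1) scale. Both models are set against the same Ctrl libraries. With 2 libraries a group, no test for a single outlying library was made.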

How the results depend on the processing

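The falls of Klf15 in ApoE against Ctrl and against CKD, and those of Klf4 and Klf6 against CKD, were called under each of the 16 alternatives. The count of members called in ApoE against Ctrl, 4, was 1 with the adipocyte level as a covariate, where Klf3 turned to 0.03, and 2 to 4 with 1 library left out (2 without Ctrl 1 or ApoE 2). In CKD against Ctrl it was 0, and 0 to 1 with 1 library left out (1 without CKD 2). In ApoE against CKD it was 4, and 3 to 5. All genes called in ApoE against Ctrl, 6208, became 1359 with the adipocyte covariate and 2992 to 7022 with 1 library left out (2992 without Ctrl 1, 3328 without Ctrl 2, 4010 without ApoE 1, 3274 without ApoE 2). In CKD against Ctrl 766 became 1 with no filter, 46 with the replicate block, 0 with the adipocyte covariate and 3 with only the 4 libraries compared, and 0 to 2366 with 1 library left out. In ApoE against CKD 5592 became 2559 to 4941 (3451 without ApoE 1, 2559 without ApoE 2). The cause of these shifts was not tested. Fits with libraries left out held fewer libraries. The adipocyte covariate and the replicate block kept all 6 libraries and 14074 genes, and the fit with no filter held more genes, 27815. The adipocyte level was higher in every ApoE and CKD library than in Ctrl, so it cannot be told apart from the group.

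Libraries share only a replicate number: deviations of same-numbered libraries correlated at 0.046 (Ctrl and ApoE), -0.233 (Ctrl and CKD) and -0.097 (ApoE and CKD). With the replicate block 3 members were called in ApoE against Ctrl (Klf3 was lost, adjusted p = 0.0686), 0 in CKD against Ctrl and 4 in ApoE against CKD, and 5159 and 4556 of all genes in the comparisons with ApoE. TPM moved the median of all genes by -0.28, -0.18 and -0.11 in the 3 comparisons, and under it Klf4 (-0.76, adjusted p = 0.0267) and Klf6 (-0.70, adjusted p = 0.0415) were also called in ApoE against Ctrl. With 21 reads in each ApoE library, Klf5 is limited by depth.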
